A study of Mus musculus with 30 samples.

Results

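The effect of a high dietary dose of methylmercury on hippocampal RNA was measured over both diets of the study at once. The 10 exposed mice were the 5 of the HD group and the 5 of the Se_HD group, and the 10 controls were the 5 of Ctr and the 5 of Se_Ctr. These 20 libraries were chosen by the treatment label alone, out of 30 in the series. All were male BALB/c mice that arrived at 2 to 3 weeks of age, were acclimatized for 5 days and were then fed their diets for 11 weeks, housed singly. Feed of the HD group held 5 mg methylmercury per kg. The Se_Ctr and Se_HD groups were given selenium in addition, in an amount that the sources used here do not give, and the mercury content of the Se_HD feed was not stated separately from its label. Ctr and Se_Ctr are the labelled controls of the diets. The remaining 10 mice, LD and Se_LD, received a low dose and are used only where the high dose is set against it. Each library was made from a hippocampus RNA sample of its own, and in such bulk tissue fewer cells of a type and less RNA per cell cannot be told apart.

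Methylmercury, an organic form of mercury found in seafood, crosses the blood-brain barrier and binds thiol and selenol groups, which brings it into contact with glutathione and with selenoproteins. In brain tissue, microglia are the resident phagocytes and make C1q. Lysosomal proteases are made by microglia and by neurons and astrocytes. Astrocytes support synapses, hold glutathione and metallothioneins, and raise the intermediate filament protein GFAP when they become reactive. Levels below are normalized counts, that is, reads of a gene divided by a size factor of its library. Differences are on the scale of log2(normalized count + 1). Values of single mice are given in the order of their library numbers, which are 1, 7, 13, 19 and 25 for Ctr, 3, 9, 15, 21 and 27 for HD, 4, 10, 16, 22 and 28 for Se_Ctr and 6, 12, 18, 24 and 30 for Se_HD.

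Reads on genes ranged from 5768208 to 11270577 per library. The exposed mice had 9369706 ± 1465564 reads (SD, n = 10) and the controls 8356933 ± 1619737 (SD, n = 10), a difference that an exact two-sided permutation test within diets did not separate from the spread between mice (p = 0.158). The 7 genes fixed as markers of hippocampal subfields summed to between 3176 and 5833 normalized counts in every one of the 20 libraries. 4 libraries stood apart. HD library 21 had the highest level of many glial genes, Gfap and C4b among them, Ctr library 1 held RNA of the pituitary hormone genes Gh (3697 normalized counts) and Pomc (1966), Ctr library 13 was the shallowest, and HD library 15 was the shallowest of the exposed mice. Depth alone does not define these 4, as Ctr library 7, at 6567027 reads, was shallower than HD library 15, at 7133831, and was not among them. Choroid plexus, the tissue that secretes cerebrospinal fluid and borders the hippocampus, was present in unequal amounts. Its 11 markers summed to a median of 16980 normalized counts in Ctr (2370 to 43520) and 41120 in HD (9910 to 44690), and to 21370 in Se_Ctr (10770 to 30580) and 42880 in Se_HD (14300 to 53340). 10 of these 11 markers were higher in the exposed mice at an unadjusted p under 0.05, among them Ttr with a log2 difference of 1.27, and 2 of the 11 were without the 4 libraries that stood apart. The 5 markers of meninges, the membranes around the brain, summed to 1625 to 5069 in Ctr and 2889 to 6466 in HD. On the selenium diet their sums did not overlap, at 1699 to 4212 in Se_Ctr and 4341 to 6492 in Se_HD, and 4 of the 5 were higher in Se_HD at an unadjusted p under 0.05. Over both diets 1 of the 5, Igf2, was higher, and 3 were without the 4 libraries that stood apart. The part of meninges in the results was not tested. The main results are given also with the mean log2 level of the 11 choroid plexus markers as a covariate.

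**Figure D1:**
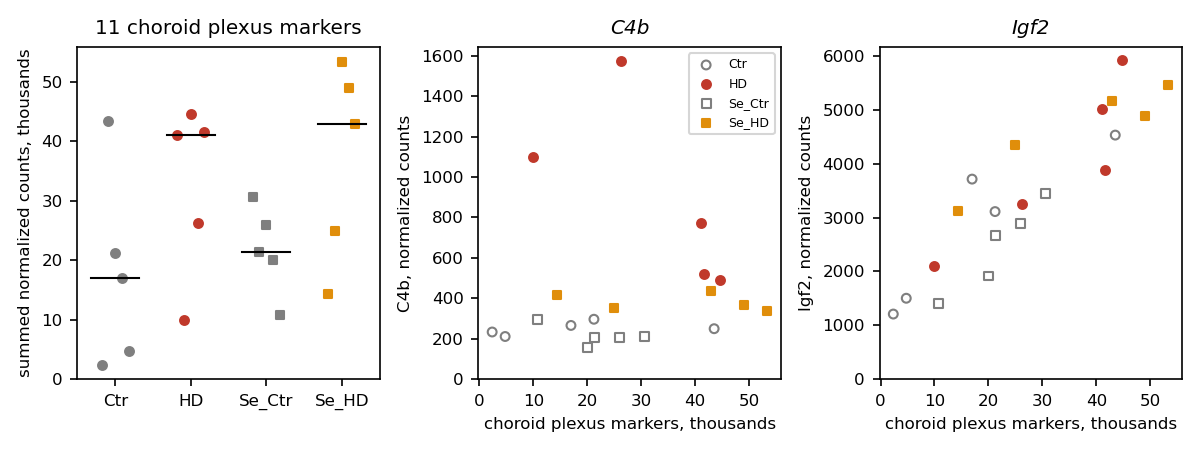
The left panel plots the summed normalized counts of 11 choroid plexus markers for each mouse by group, with the median as a line. The other panels plot C4b and Igf2 in normalized counts against that sum for the same 20 mice. C4b lies higher in the exposed mice (filled) over the whole range of the sum, whereas Igf2 follows the sum in exposed and control mice.

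With diet as a covariate, 6 of 20582 genes passed a Benjamini-Hochberg adjusted p of 0.05 in limma's test, which is 0.0292% of those tested. 5 were higher in the mice given the high dose: C4b, Gstm1, Mpeg1, Hrsp12 and Agt. Vamp1 was lower. At the study's own threshold, an unadjusted p under 0.05, 1922 genes passed (9.34%), of which 1149 were higher (5.58%) and 773 lower (3.76%). In 5 genes (0.0243%) no exposed mouse overlapped a control mouse. C4b, Lamp2 and Gfap were above every control in all 10 exposed mice, and Vamp1 and Kif5a were below every control. Without the 4 libraries that stood apart, 9 genes passed the adjusted threshold, and C4b, Gstm1, Agt and Vamp1 were among them. With the choroid plexus covariate 3 passed, C4b, Gstm1 and Agt. The count also moved when a single mouse was left out, from C4b alone without Ctr library 7 to 14 higher and 2 lower genes without HD library 21.

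The promoters of the genes that passed are shown to give their sequence context, as the 250 bases before the transcription start from RefSeq (GRCm38.p6). Of the 6 genes, 4 had an entry. Capitals mark matches to the motifs, which were searched on both strands of windows of 300 bases, the 250 printed and the 50 that follow them. All matches lay in the printed part, and the shares of windows with a motif are over these 300-base windows. The motifs were GAGGAAGT (PU.1), TTCNNNGAA (STAT), TGANTCA (AP-1), TGACNNNGC (antioxidant response element core), and TGCACNC and TGCGCNC (metal response element core).
Gstm1, chr3:108017974-108018223, minus strand: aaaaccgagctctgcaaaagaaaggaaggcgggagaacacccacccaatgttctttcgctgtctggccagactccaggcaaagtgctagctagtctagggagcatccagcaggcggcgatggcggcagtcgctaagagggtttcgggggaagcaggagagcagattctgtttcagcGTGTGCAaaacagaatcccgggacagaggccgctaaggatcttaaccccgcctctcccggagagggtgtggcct
Mpeg1, chr19:12460520-12460769, plus strand: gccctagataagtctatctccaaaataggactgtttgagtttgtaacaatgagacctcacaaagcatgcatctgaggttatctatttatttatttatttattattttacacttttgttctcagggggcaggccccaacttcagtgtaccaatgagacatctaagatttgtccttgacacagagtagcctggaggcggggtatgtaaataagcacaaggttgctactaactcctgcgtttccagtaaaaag
Agt, chr8:124569707-124569956, minus strand: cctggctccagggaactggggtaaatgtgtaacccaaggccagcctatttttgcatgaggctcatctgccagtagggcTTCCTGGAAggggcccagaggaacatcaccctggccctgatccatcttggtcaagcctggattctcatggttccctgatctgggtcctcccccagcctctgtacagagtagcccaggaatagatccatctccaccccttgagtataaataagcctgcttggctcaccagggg
Vamp1, chr6:125215331-125215580, plus strand: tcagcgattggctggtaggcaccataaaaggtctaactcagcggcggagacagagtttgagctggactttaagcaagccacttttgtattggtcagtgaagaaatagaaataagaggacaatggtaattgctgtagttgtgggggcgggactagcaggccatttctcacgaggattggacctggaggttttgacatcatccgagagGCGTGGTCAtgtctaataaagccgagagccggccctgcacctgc
The Gstm1 window held TGCACNC at -74 on the opposite strand, a motif found in 12.6% of the 32851 windows in the table. The Agt window held TTCNNNGAA at -172, found in 8.3% of all windows. The Vamp1 window held TGACNNNGC at -44 on the opposite strand, found in 12.4%. The Mpeg1 window held none of the 6 motifs. A match is a description of letters only. Over windows of the genes that were higher at an unadjusted p under 0.05, the share with each motif was 3.56% for GAGGAAGT, 7.63% for TTCNNNGAA, 9.46% for TGANTCA, 14.2% for TGACNNNGC, 12.4% for TGCACNC and 18.0% for TGCGCNC. Over windows of the lower genes the shares, in the same order, were 2.3%, 4.6%, 4.6%, 13.3%, 12.6% and 24.5%. The corresponding shares of all windows were 3.2%, 8.3%, 7.81%, 12.4%, 12.6% and 15.4%.

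C4b, complement component 4, is cleaved during complement activation and tags material for uptake. It had the lowest p of all genes. The Ctr mice had 233, 249, 296, 266 and 211 normalized counts, and the HD mice 772, 1102, 492, 1573 and 519. The Se_Ctr mice had 209, 207, 206, 158 and 297, and the Se_HD mice 418, 350, 335, 367 and 437. Thus the lowest exposed mouse, at 335, lay above the highest control, at 297. C4b rose by 1.27 ± 0.17 (SE) on the log2 scale, a 2.41-fold difference (limma, adjusted p = 0.00213). The rise was 3.23-fold between HD and Ctr and 1.79-fold between Se_HD and Se_Ctr. C4b (chr17:34865325-34880827, NCBIM37) has a near-identical neighbour, C4a, so that reads may have been split between them. C4a itself was measured at a lower level and had a log2 difference of 0.61 ± 0.14 (unadjusted p = 0.000242).

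Mpeg1 encodes perforin-2, a pore-forming protein of macrophages and microglia. Its levels in Ctr were 284, 210, 340, 277 and 272, against 862, 1480, 706, 1585 and 457 in HD. On the selenium diet the controls had 266, 252, 232, 230 and 285, and the exposed mice 311, 332, 344, 339 and 361. Within each diet the groups did not overlap, although Ctr library 13, at 340, lay above 3 of the Se_HD mice. Mpeg1 rose by 1.08 ± 0.20 (limma, adjusted p = 0.0424), 3.35-fold on the basal diet and 1.34-fold with selenium. With the choroid plexus covariate its log2 difference was 1.17 and its adjusted p 0.104, and the adjusted p with sets of 6 consecutive library numbers, each holding 1 mouse of every group, as covariate was 0.0760.

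Agt, angiotensinogen, is made in brain mainly by astrocytes. The Ctr mice had 165, 93.3, 128, 80.3 and 84.5, and the HD mice 253, 299, 188, 174 and 189. The Se_Ctr mice had 86.9, 118, 111, 77.4 and 76.2, and the Se_HD mice 188, 121, 119, 104 and 179. On the basal diet exposed and control mice were separate, whereas Se_HD library 24 overlapped with its controls. Agt rose by 0.80 ± 0.15 on the log2 scale (limma, adjusted p = 0.0424), and 7 of 10 exposed mice were above every control. It passed in 21 of the 37 alternative fits described at the end.

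Gstm1 is a glutathione S-transferase, which joins glutathione to electrophiles. It was at 1403, 1289, 1344, 1266 and 1263 in Ctr and at 1689, 2282, 1864, 1645 and 1757 in HD. It was at 1406, 1378, 1344, 1391 and 1124 in Se_Ctr and at 1735, 1823, 1375, 1632 and 1761 in Se_HD. 9 of 10 exposed mice were above every control, the exception being Se_HD library 18. Gstm1 rose by 0.40 ± 0.07 (limma, adjusted p = 0.0165), and the folds on the diets, 1.40 and 1.25, were alike in size. The test of their difference gave an unadjusted p of 0.227. Gstm1 belongs to a family of similar genes, among which single-end reads may be shared.

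Hrsp12 encodes reactive intermediate imine deaminase A, which removes reactive by-products of amino acid metabolism. In Ctr its levels were 413, 354, 323, 328 and 302, and in HD 556, 629, 494, 481 and 477. In Se_Ctr they were 370, 338, 332, 365 and 282, and in Se_HD 418, 390, 362, 408 and 388. The HD mice lay above all controls, and of the Se_HD mice only library 6 did. Hrsp12 rose by 0.42 ± 0.08 (limma, adjusted p = 0.0424), 1.53-fold on the basal diet and 1.17-fold with selenium. The log2 difference was 0.45 with the choroid plexus covariate, at an adjusted p of 0.104.

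Vamp1, synaptobrevin 1, is a vesicle protein of the release machinery that is abundant in fast-spiking neurons. It was at 1738, 1277, 1176, 1271 and 1241 in Ctr and at 987, 943, 989, 776 and 1018 in HD. It was at 1204, 1233, 1203, 1285 and 1263 in Se_Ctr and at 940, 1086, 1124, 995 and 1061 in Se_HD. Every exposed mouse was below every control, the nearest being 1124 and 1176. Vamp1 fell by 0.38 on the log2 scale (SE 0.07, limma, adjusted p = 0.0424), to 0.771 of the control level. With the choroid plexus covariate the log2 difference was -0.33 and the adjusted p 0.260, and with sets of 6 library numbers as covariate the adjusted p was 0.0760.

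**Figure D2:**
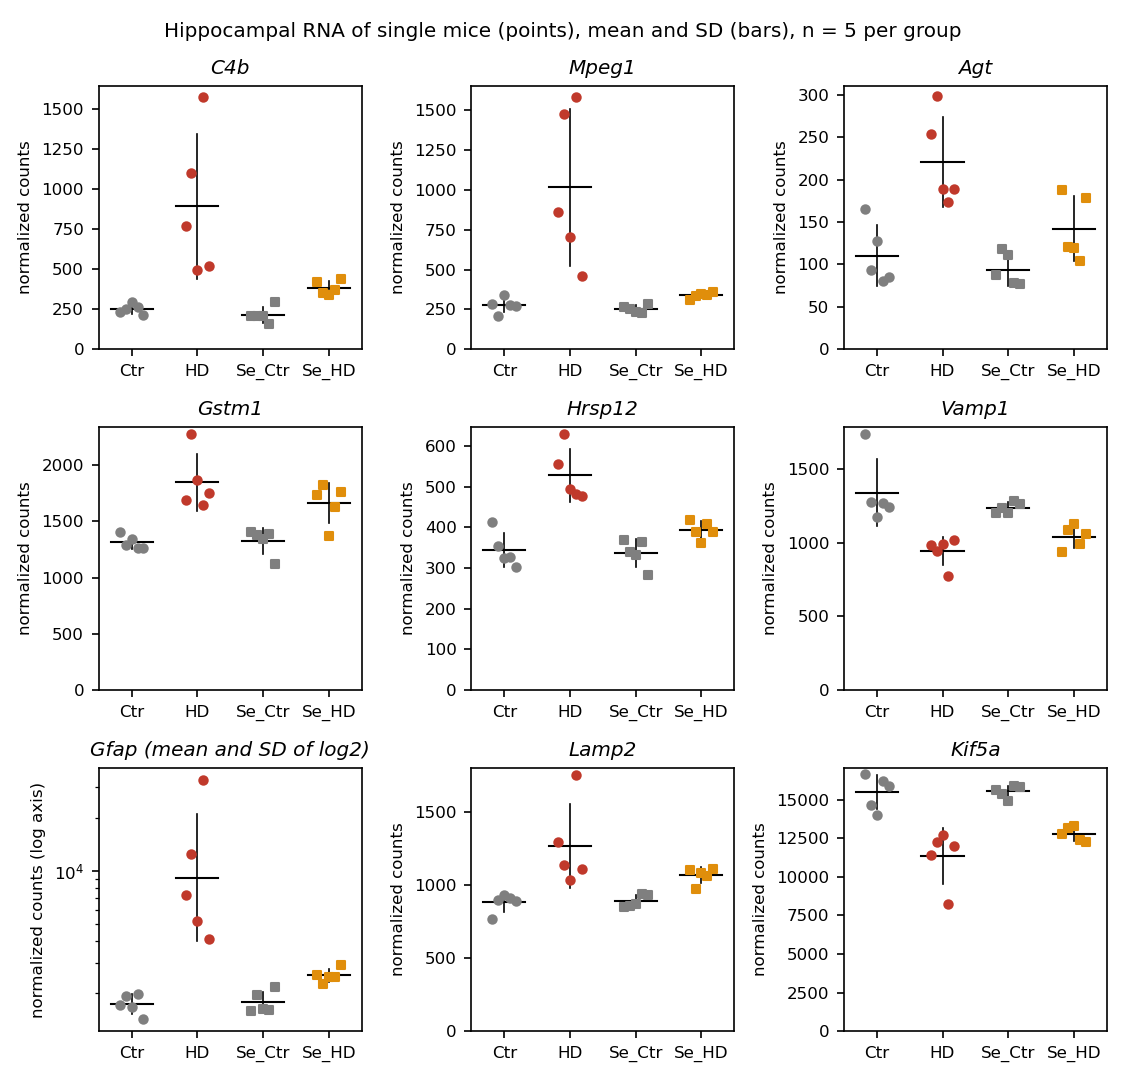
Normalized counts of 9 genes in each of the 20 mice (points), with the group mean and SD as bars (n = 5; for Gfap a log axis, with mean and SD of log2 values). In C4b, Gfap and Lamp2 all exposed mice lie above all controls, and in Vamp1 and Kif5a below them, with HD library 21 the outermost HD mouse in all of these.

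3 further genes showed no overlap of exposed and control mice but had adjusted p values just above 0.05 over all genes, and were named after their values were seen. Gfap, the astrocyte filament protein, was at 1722, 1930, 1673, 1988 and 1430 in Ctr and at 7281, 12446, 5143, 32820 and 4080 in HD. It was at 1596, 1950, 1637, 1610 and 2165 in Se_Ctr and at 2546, 2264, 2499, 2491 and 2909 in Se_HD. The log2 difference was 1.45 ± 0.29 (limma, adjusted p = 0.0567), and without HD library 21 its adjusted p was 0.0117. Lamp2, a membrane protein of lysosomes needed for chaperone-mediated autophagy, ranged from 768 to 939 in the controls and from 975 to 1754 in the exposed mice. Its log2 difference was 0.38 ± 0.07 (adjusted p = 0.0532). Kif5a, a kinesin motor of neuronal axons, ranged from 14019 to 16635 in the controls and from 8211 to 13266 in the exposed mice. Its log2 difference was -0.37 ± 0.07 (adjusted p = 0.0532). Without HD library 21 the adjusted p was 0.0143 for Lamp2 and 0.0301 for Kif5a. With the choroid plexus covariate the log2 differences were 1.49 for Gfap, 0.35 for Lamp2 and -0.34 for Kif5a, at adjusted p values of 0.227, 0.271 and 0.344.

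The mice of the basal and selenium diets are different animals, so that each diet repeats the comparison of the other. Within a diet, with 5 mice against 5, limma called no gene at an adjusted p of 0.05, in HD against Ctr or in Se_HD against Se_Ctr. At an unadjusted p under 0.05, 906 genes were higher (4.74%) and 592 lower (3.1%) in HD, and 584 were higher (3.11%) and 367 lower (1.96%) in Se_HD. edgeR called 0 genes in either, and DESeq2 called 138 and 13. Of the 870 genes that were higher in HD and measured on both diets, 112 were also higher in Se_HD. That is 12.9%, where 3.12% of all 18402 genes measured on both were higher in Se_HD. Taken from the other side, 19.5% of the 575 genes higher in Se_HD were also higher in HD, against 4.73% of all. Of the 578 genes lower in HD, 33 were also lower in Se_HD (5.71%, against 1.97% of all), which is 9.12% of the 362 genes lower in Se_HD, against 3.14% of all. C4b, Gfap, Mpeg1, Vamp1, Gstm1, Lamp2 and Ctsh headed the genes that met this threshold on both diets.

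A test of the interaction of dose and diet asked whether the size of the difference varied with diet. It gave 943 genes at an unadjusted p under 0.05 (4.58%), a share no larger than the threshold itself, and none at an adjusted p of 0.05 in limma or edgeR, while DESeq2 called C1qb, Mpeg1 and Tyrobp. In these 3 genes the difference was smaller with selenium. Tyrobp, the adaptor of several microglial receptors, was 3.27-fold higher in HD and 1.07-fold in Se_HD (interaction, unadjusted p = 0.000115). The genes with the lowest interaction p in limma were Glycam1, Il1b and Clec5a, all at low levels. Glycam1, a mucin-like glycoprotein, was at 12.1, 15.0, 8.1, 39.99 and 5.2 normalized counts in HD and between 0 and 2.34 in Ctr, Se_Ctr and Se_HD. It was also at 1.05 to 9.96 in LD and 0.836 to 4.43 in Se_LD, and its low dose difference from the controls was 1.09 on the log2 scale (unadjusted p = 0.00326). Clec5a, a receptor of myeloid cells, was at 21.8 to 58.8 in HD, 5.1 to 15.7 in Ctr, 9.50 to 15.7 in Se_Ctr and 10.1 to 14.2 in Se_HD. Il1b, the cytokine interleukin-1 beta, was at most 17.1 in any mouse, and was at 0 in 4 of 5 Se_HD mice. C4b (unadjusted p = 0.0111) and Gfap (0.000352) also had smaller differences with selenium, as did Hrsp12 (0.00863). Vamp1 had an interaction p of 0.0688, and Agt, Gstm1, Lamp2 and Kif5a had interaction p values from 0.113 to 0.229.

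**Figure D3:**
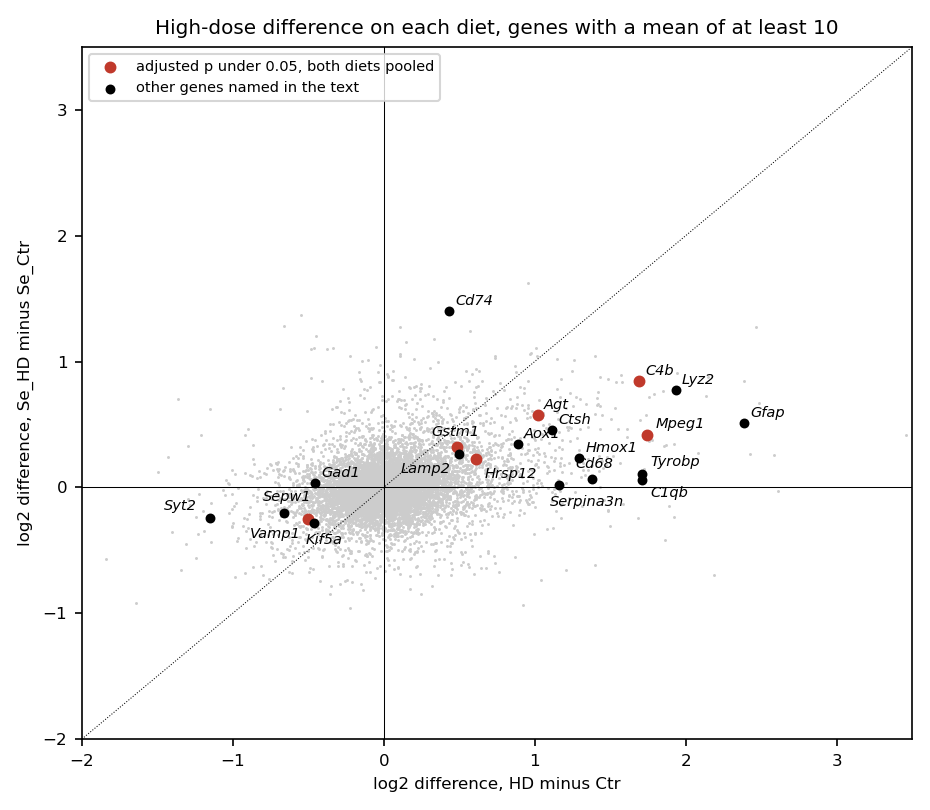
Each point is a gene whose mean reached 10 normalized counts, with its log2 difference HD minus Ctr on the horizontal axis and Se_HD minus Se_Ctr on the vertical axis; the dotted line marks equality. The 6 genes that passed over both diets (red) lie on the same side of 0 on both, and C1qb, Tyrobp, Cd68 and Serpina3n lie near 0 on the selenium axis.

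Gene lists for glial, redox and neuronal functions were described by counts and medians, beside the 5.58% of all genes that were higher and 3.76% that were lower. The median log2 difference over all genes was 0.000554. Members are named by low p values seen in these data, and those that failed the adjusted test are given by their values.

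The complement list had 12 of 17 members higher at an unadjusted p under 0.05 and none lower. Its median log2 difference was 0.61, with 1.2 on the basal diet and 0.36 with selenium. C1qa, C1qb and C1qc, which form the recognition molecule C1q of the classical pathway, had log2 differences of 0.71, 0.89 and 0.80. In C1qb the HD mice had 268, 522, 498, 790 and 165 and Ctr 147, 143, 95.3, 119 and 98.0. In Se_HD it was at 133, 142, 134, 120 and 155, overlapping with Se_Ctr at 149, 142, 132, 137 and 99.5. C3, the central component, was at 14.8 to 113 in HD and 4.83 to 14.1 in Ctr, and at 9.91 to 31.8 in Se_HD and 7.03 to 17.9 in Se_Ctr. Its log2 difference was 1.30 ± 0.31 (unadjusted p = 0.000303). The receptor C3ar1 had 1.09 ± 0.27, with 1.77 on the basal diet and 0.42 with selenium. Itgam, a subunit of complement receptor 3, had 0.54 ± 0.19. Its difference was 1.09 on the basal diet and -0.008 with selenium (interaction, unadjusted p = 0.00246). Clu, clusterin, an extracellular chaperone that restrains the terminal pathway, was at 8148 to 10845 in HD and at 4965 to 6753 in Ctr. In Se_HD it was at 6538 to 7567 and in Se_Ctr at 5770 to 6374, without overlap on either diet, and its log2 difference was 0.38 ± 0.08 (adjusted p = 0.0670). Without the 4 libraries that stood apart the differences were 0.51 for C1qb, 0.50 for C1qc, 0.70 for C3ar1 and 0.36 for Itgam. The count for the list was 11 without HD library 21 and 12 with the choroid plexus covariate.

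Of 16 genes of homeostatic microglia, 13 were higher at an unadjusted p under 0.05 and none lower. The count was 10 without HD library 21 and 9 without the 4 libraries that stood apart. Their median was 0.68 on the basal diet and 0.07 with selenium, where 2 were higher. Csf1r, the receptor for the survival factors of microglia, was at 849 to 1689 in HD and 638 to 744 in Ctr. With selenium it overlapped, at 706 to 884 in Se_HD and 574 to 849.5 in Se_Ctr. Its log2 difference over both diets was 0.45 ± 0.12 (adjusted p = 0.180). Tmem119 and P2ry12, the latter a receptor that guides microglial processes, had 0.26 ± 0.09 and 0.21 ± 0.09. Cx3cr1, the fractalkine receptor, was 1.60-fold higher in HD than in Ctr and 0.972-fold in Se_HD against Se_Ctr (interaction, unadjusted p = 0.000592), and its pooled p was 0.0620 without the 4 libraries that stood apart. Sparc, a matrix-binding protein, had 0.48 ± 0.10 (adjusted p = 0.0670). In 10 of the 16 genes the interaction had an unadjusted p under 0.05, each with the smaller difference on selenium, where 4.58% of all genes passed in either direction. Of the 12 measured genes of Tyrobp, Trem2 and Fc receptor signalling, 8 were higher, and 5 without HD library 21. Their median was 0.87 on the basal diet, where 9 were higher, and 0.06 with selenium, where 0 were. Trem2, a lipid-sensing receptor of microglia, was at 90.1 to 303 in HD and 60.8 to 90.6 in Ctr. On the selenium diet it overlapped, at 68.1 to 96.3 in Se_HD and 65.4 to 85.6 in Se_Ctr. Fcgr1, a high-affinity IgG receptor, had a log2 difference of 0.60 ± 0.18.

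Of 20 genes of disease-associated microglia, a state with raised phagocytic and lipid genes, 13 were higher and none lower. The median was 1.08 on the basal diet and 0.20 with selenium, where 3 were higher. Over both diets the count was 10 without HD library 21 and 10 without the 4 libraries that stood apart. Lyz2, lysozyme, was at 309, 372, 124, 538 and 146 in HD and 42.3 to 99.2 in Ctr. It was at 111, 140, 59.0, 77.4 and 176 in Se_HD and 40.3 to 77.4 in Se_Ctr, and its log2 difference was 1.35 ± 0.26 (adjusted p = 0.0532). Itgax, the integrin CD11c, was at 7.85 to 90.8 in HD and 0 to 3.84 in Ctr, but at 2.28 to 6.36 in Se_HD against 0.827 to 9.38 in Se_Ctr. Cd14, a co-receptor for bacterial lipopolysaccharide, had 1.35 ± 0.33, and Cd68, a lysosomal protein of phagocytes, 0.72 ± 0.21. Cybb, the catalytic subunit of the phagocyte NADPH oxidase, had 1.51 ± 0.45. Cd63, a protein of late endosomes, had 0.68 ± 0.18, but 0.40 without the 4 libraries that stood apart. Spp1, osteopontin, reached 2822 in HD library 21 and was at 33.2 to 242 in the other HD mice. Apoe, the main lipoprotein of the brain, had 0.33 ± 0.09 (adjusted p = 0.231). Of 9 genes of monocytes and border macrophages none met the unadjusted threshold, and their sums overlapped, at 71.0 to 150 in Ctr and 90.1 to 169 in HD, and at 67.2 to 113 in Se_Ctr and 78.1 to 166 in Se_HD. Without the 4 libraries that stood apart 2 of the 9 were higher, Ccr2 and Mrc1, and with the choroid plexus covariate 1, Cd163. The 2 B cell genes and the 5 neutrophil genes in the table each had a mean under 5 normalized counts.

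The cathepsin and lysosome list had 14 of 26 members higher and none lower, with medians of 0.42 and 0.05 on the basal and selenium diets. In Se_HD alone 3 were higher. Over both diets 12 were higher without HD library 21, and 12 higher and 1 lower without the 4 libraries that stood apart. Ctsh, a cysteine protease, was at 77.6 to 253 in HD and 50.7 to 75.6 in Ctr, and at 68.0 to 88.8 in Se_HD and 50.2 to 62.1 in Se_Ctr. The groups did not overlap within a diet, and its log2 difference was 0.78 ± 0.15 (adjusted p = 0.0532). Ctss, a protease of phagocytes, had 0.62 ± 0.17, and Ctsd, the main aspartic protease of lysosomes, 0.54 ± 0.15. Npc2, which carries cholesterol out of lysosomes, was 1.54-fold higher in HD and 1.07-fold in Se_HD (interaction, unadjusted p = 0.00205).

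Of 13 pan-reactive astrocyte genes, 9 were higher and none lower. The median was 1.32 on the basal diet and 0.43 with selenium, where 6 members met the unadjusted threshold. Osmr, the oncostatin M receptor, was at 63.7 to 388 in HD and 35.8 to 50.7 in Ctr, and at 48.2 to 86.4 in Se_HD and 41.2 to 52.2 in Se_Ctr. Its log2 difference was 1.03 ± 0.24 (adjusted p = 0.118). Serpina3n, a secreted protease inhibitor, was at 1042 to 4745 in HD and 548 to 798 in Ctr, without overlap, while Se_HD (822 to 1055) lay inside the range of Se_Ctr (749 to 1213). Over both diets its log2 difference was 0.59, and 0.37 without HD library 21. Aspg, an asparaginase, had 1.04 ± 0.29. Timp1, an inhibitor of matrix metalloproteases, was at 503 in HD library 21 and at most 19.2 in the other 19 mice. Vim, the filament protein vimentin, was at 3548 in HD library 21 and at most 439.6 elsewhere. The lists of neuroinflammatory (A1) and ischaemia-associated (A2) astrocyte genes had 2 of 11 and 3 of 11 members higher, among them Gbp2 and Cd14. Of 14 homeostatic astrocyte genes, 6 were higher, with a median of 0.13. Aqp4, the water channel of astrocyte endfeet, had 0.54 ± 0.21 but 0.31 without HD library 21, where it was at 9364. S100b, a calcium-binding protein, had 0.24 ± 0.08. Slc1a2, the main glutamate transporter, had 0.05 ± 0.08.

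**Figure D4:**
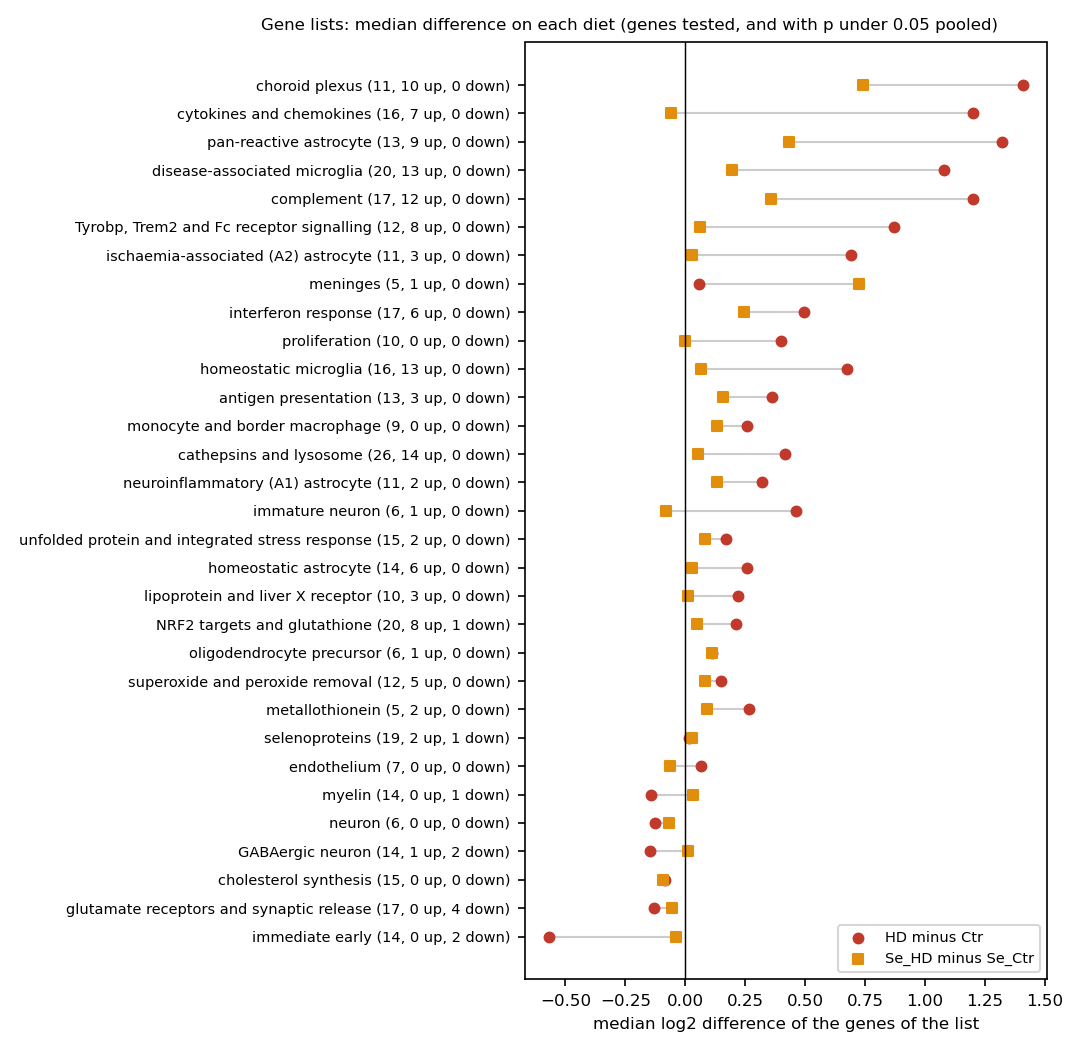
Median log2 difference of each gene list, for HD minus Ctr (circles) and Se_HD minus Se_Ctr (squares), with the number of genes tested and the numbers higher and lower at an unadjusted p under 0.05 over both diets in brackets. The line marks 0. The circles lie to the right of the squares for all microglial, complement and reactive astrocyte lists.

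Of 16 cytokines and chemokines, 7 were higher, but 2 without the 4 libraries that stood apart, and the median was 1.2 on the basal diet and -0.06 with selenium. Ccl3 and Ccl4, chemokines of activated microglia, were at 2.62 to 50.8 and 0.872 to 28.3 in HD. Ccl4 was listed at 0 in all Ctr mice, and was at most 1.14 in Se_HD. Of 17 interferon response genes, 6 were higher, and 2 without HD library 21. Gbp2, an interferon-induced GTPase, had 0.80 ± 0.23, with 0.98 and 0.61 on the basal and selenium diets. Ifit3, an interferon-induced antiviral protein, had 0.78 ± 0.32, and Ifitm3, a membrane protein that limits viral entry, 0.66 ± 0.27. Without HD library 21 these were 0.52 for Ifit3 (unadjusted p = 0.055) and 0.40 for Ifitm3 (unadjusted p = 0.0331). In antigen presentation 3 of 13 measured genes were higher. B2m, the light chain of class I molecules, had 0.43 ± 0.15, and Tapbp, which loads peptides onto them, had 0.30 ± 0.08. Cd74, the invariant chain of class II molecules, was at 17.9 to 63.7 in Se_HD and 7.17 to 16.4 in Se_Ctr, without overlap, but at 12.1 to 31.0 in HD and 6.76 to 42.5 in Ctr.

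Of 20 NRF2 targets and glutathione genes, 8 were higher and 1 lower, with a median of 0.11, and 6 were higher with the choroid plexus covariate. Nfe2l2, which encodes NRF2, the transcription factor for electrophile defence, was at 159 to 263 in HD and 118 to 155 in Ctr, and at 125 to 179 in Se_HD and 106 to 136 in Se_Ctr. Its log2 difference was 0.43 ± 0.09 (adjusted p = 0.0848), with 0.51 and 0.35 on the diets. Hmox1, heme oxygenase 1, was at 58.5 to 230 in HD and 30.4 to 49.1 in Ctr. With selenium it overlapped, at 42.7 to 63.7 in Se_HD and 39.4 to 47.5 in Se_Ctr. Its log2 difference over both diets was 0.76 ± 0.20, but 0.46 without the 4 libraries that stood apart. Slc7a11, the cystine importer that feeds glutathione synthesis, had 0.37 ± 0.13, and Ephx1, an epoxide hydrolase, 0.37 ± 0.11. For Ephx1 the unadjusted p was 0.0679 with the choroid plexus covariate, against 0.00217 without. Gclc, the rate-limiting enzyme of glutathione synthesis, had 0.08 ± 0.05 (unadjusted p = 0.149), and Gss, the second enzyme of that synthesis, had -0.21 ± 0.09. Gss was the 1 lower gene, and its unadjusted p was 0.0538 without HD library 21. Aox1, an aldehyde oxidase that is not on the list, was at 145 to 243 in HD and 77.3 to 121 in Ctr, and its log2 difference was 0.62 ± 0.12 (adjusted p = 0.0513). In the removal of superoxide and peroxide, 5 of 12 genes were higher and none lower. Sod3, the extracellular superoxide dismutase, had 0.44 ± 0.10, with 0.52 and 0.37 on the diets. Prdx1 and Prdx6, peroxiredoxins, had 0.24 ± 0.08 and 0.33 ± 0.11, with 0.16 for Prdx1 without the 4 libraries that stood apart. Cat, catalase, had 0.19 ± 0.07. Of the 12, 3 were higher with the choroid plexus covariate, and the unadjusted p was 0.0629 for Cat and 0.0989 for Gpx4.

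The 19 selenoprotein genes, including the makers of selenophosphate, had a median of 0.02, with 2 higher and 1 lower. Sepw1, selenoprotein W, whose level is known to follow the selenium supply, was at 5844, 5344, 5091, 5297 and 3858 in Ctr and at 3375, 2980, 4564, 2387 and 2980 in HD. It was at 6021, 6768, 5447, 6224 and 5407 in Se_Ctr and at 5145, 5108, 5054, 5423 and 5095 in Se_HD. The Se_HD mice were thus inside the range of Ctr, and below Se_Ctr except for library 24. The log2 difference over both diets was -0.43 ± 0.10 (adjusted p = 0.112), -0.66 on the basal diet and -0.20 with selenium (interaction, unadjusted p = 0.0164). Gpx1, glutathione peroxidase 1, had -0.49 on the basal diet and 0.07 with selenium (interaction, unadjusted p = 0.0381). Gpx4, the phospholipid hydroperoxide peroxidase, and Sepp1, the selenium carrier of plasma, had 0.18 ± 0.09 and 0.16 ± 0.08. Of 5 metallothionein genes and their regulators, Mt1 and Mt2, which bind zinc, copper and mercury, had 0.33 ± 0.12 and 0.49 ± 0.17. Mt2 was at 940 to 2615 in HD and 589 to 903 in Ctr, without overlap, and at 542 to 748 in Se_HD and 400 to 737 in Se_Ctr. Without the 4 libraries that stood apart Mt2 had 0.28. Mt3, the neural form, had 0.08 ± 0.09.

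Of 17 glutamate receptor and synaptic release genes, 16 had log2 differences below 0, with a median of -0.09 (-0.04 without HD library 21). None was higher and 4 were lower. Besides Vamp1 they were Syt2, a fast calcium sensor for release, with -0.70 ± 0.20, Vamp2 with -0.18 ± 0.08 and Grin1, the obligate NMDA receptor subunit, with -0.16 ± 0.07. Adjusted for the choroid plexus covariate, 3 of the 17 were lower, and Vamp2 had -0.11 (unadjusted p = 0.197). Syt2 was at 120 to 371 in HD and 303 to 657 in Ctr, and at 169 to 371 in Se_HD and 224 to 390 in Se_Ctr. Its log2 difference was -1.15 on the basal diet and -0.24 with selenium (interaction, unadjusted p = 0.0168). Of 14 genes of GABAergic neurons, 2 were lower and 1 higher, and 1 and 0 with the choroid plexus covariate. Gad1, a GABA-synthesizing enzyme, was at 1848, 2005, 1888, 2018 and 2269 in HD and at 2955, 2610, 2498, 2754 and 2923 in Ctr, without overlap. In Se_HD it was at 2619, 2618, 3050, 2433 and 2745 and in Se_Ctr at 2346, 2635, 2925, 2808 and 2455, which overlapped throughout. Its log2 difference was -0.45 on the basal diet and 0.03 with selenium (interaction, unadjusted p = 0.000281). Over both diets Gad1 had -0.21 ± 0.07, with an unadjusted p of 0.00862, which was 0.0554 with the choroid plexus covariate and 0.0708 without the 4 libraries that stood apart. Pvalb, the calcium buffer of fast-spiking interneurons, had -0.40 ± 0.15, and Gad2, the other GABA-synthesizing enzyme, had -0.03 ± 0.06. Calb2, calretinin, had 0.57 ± 0.23, but 0.33 without Se_Ctr library 28, which was at 36.7 against 156 to 290 in the other Se_Ctr mice. Its unadjusted p was 0.113 with the choroid plexus covariate. Of 14 immediate early genes, 13 had differences below 0 and 2 met the unadjusted threshold, the phosphatase gene Dusp1 (-0.50 ± 0.19) and the activity-dependent factor Npas4 (-0.57 ± 0.27). None of the 14 met it with the covariate, and Npas4 had an unadjusted p of 0.0859 without HD library 21. Egr1 was at 512 to 1252 in HD and 669 to 2940 in Ctr, but at 1220 to 2116 in Se_HD and 1044 to 2022 in Se_Ctr. Its log2 difference was -0.88 on the basal diet and 0.10 with selenium (limma over both diets, unadjusted p = 0.0977). None of the 6 general neuron markers or the 7 subfield markers met the unadjusted threshold in the pooled comparison, but 1 subfield marker, Wfs1, was lower without HD library 21 (unadjusted p = 0.0411).

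Among oligodendrocyte genes, Mal, a myelin proteolipid, was the 1 of 14 myelin genes that met the unadjusted threshold (-0.28 ± 0.12). It had -0.20 without HD library 21 (unadjusted p = 0.0712) and -0.20 without the 4 libraries that stood apart (unadjusted p = 0.0678). With the choroid plexus covariate it had -0.28 (unadjusted p = 0.0584). None of 15 measured genes of cholesterol synthesis and none of 10 proliferation genes met the threshold, although 3 of cholesterol synthesis were lower without HD library 21. In the unfolded protein response, all 15 genes had differences above 0 and 2 met the unadjusted threshold, the endoplasmic reticulum chaperones Pdia4 (0.47 ± 0.12) and Hspa5 (0.31 ± 0.13). Of the 15, 5 were higher with the choroid plexus covariate and 1 without the 4 libraries that stood apart, where Hspa5 had an unadjusted p of 0.0917. Without HD library 21, 2 were higher and 1 was lower, the asparagine synthetase gene Asns (unadjusted p = 0.0353), so that the direction was not shared by all 15 without that library. The small heat shock proteins Hspb8 and Cryab had 0.77 ± 0.15 (adjusted p = 0.0567) and 0.32 ± 0.08. Plin4, a lipid droplet coat protein, and Ctla2a, an inhibitor of cathepsins, had 1.13 ± 0.23 and 0.85 ± 0.17 (both adjusted p = 0.0610), with differences on the diets of 1.26 and 1.01 for Plin4 and 0.90 and 0.79 for Ctla2a. Maf, a transcription factor, had 0.34 ± 0.07, and Sdc4, a heparan sulfate proteoglycan, 0.45 ± 0.10. Apod, a lipid carrier of glia, had 0.45 ± 0.15. Igf2, a growth factor made in choroid plexus and meninges, had 0.78 ± 0.22, but 0.27 with the choroid plexus covariate (unadjusted p = 0.0255). Of 28 further genes that were named because they are the most abundant of their lists, 1 met the unadjusted threshold, Gpr17 of oligodendrocyte precursors (0.13 ± 0.06). The 28 included Cst3 of microglia, Psap of lysosomes, Glul of astrocytes, Sod2, Mbp of myelin and Arc, and their log2 differences ranged from -0.29 to 0.45.

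Against the low dose, 5 of 20503 genes passed the adjusted threshold in limma (0.0244%). C4b, Lyz2 and Hrsp12 were higher in the high-dose mice, and Vamp1 and Cbln2, a synapse organizer, were lower. At an unadjusted p under 0.05, 921 genes were higher (4.49%) and 705 lower (3.44%). C4b was at 205 ± 40.3 in LD and 236 ± 43.3 in Se_LD (SD, n = 5), against 891 ± 453 in HD and 381 ± 44.0 in Se_HD. Lyz2 was at 58.3 ± 9.84 in LD and 57.9 ± 15.0 in Se_LD, against 298 ± 171 in HD and 113 ± 47.3 in Se_HD. Vamp1 was at 1328 ± 105 in LD and 1352 ± 194 in Se_LD, against 943 ± 96.8 in HD and 1041 ± 73.7 in Se_HD. Gfap was at 1891 ± 233 in LD and 1817 ± 352 in Se_LD. The low dose itself, over both diets against the same controls, gave no gene at an adjusted p of 0.05 in limma, edgeR or DESeq2, and 529 genes at an unadjusted p under 0.05 (2.57%). Its log2 differences were -0.08 for C4b, 0.06 for Gfap and 0.06 for Vamp1. The high dose comparisons with controls and with the low dose share the exposed mice.

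The exposed mice spread widely, with C4b at 636 ± 405 over the 10 exposed mice and 233 ± 44.0 over the 10 controls (SD). Over the 10 exposed mice, with the mean of each diet removed, Gfap and C4b varied together (Pearson's r = 0.959, exact permutation p = 0.00278, adjusted over 4 relations 0.0111; Spearman's rho = 0.903, p = 0.00604, adjusted 0.0242). Without HD libraries 21 and 27, the mice farthest from the median of Gfap, r was 0.946, and within the diets it was 0.971 and 0.765. Gfap and C1qb had r = 0.789 (exact permutation p = 0.0956, adjusted 0.191) and rho = 0.661 (p = 0.139, adjusted 0.278), and r was 0.157 without these mice, so that this relation rests on them. Gfap with Gad1 had r = -0.0847 (exact permutation p = 0.817, adjusted 0.817) and rho = 0.273 (p = 0.434, adjusted 0.579). C1qb with Gad1 had r = -0.252 (exact permutation p = 0.562, adjusted 0.750) and rho = 0.139 (p = 0.690, adjusted 0.690). Without the same mice r was 0.378 and 0.308.

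**Figure D5:**
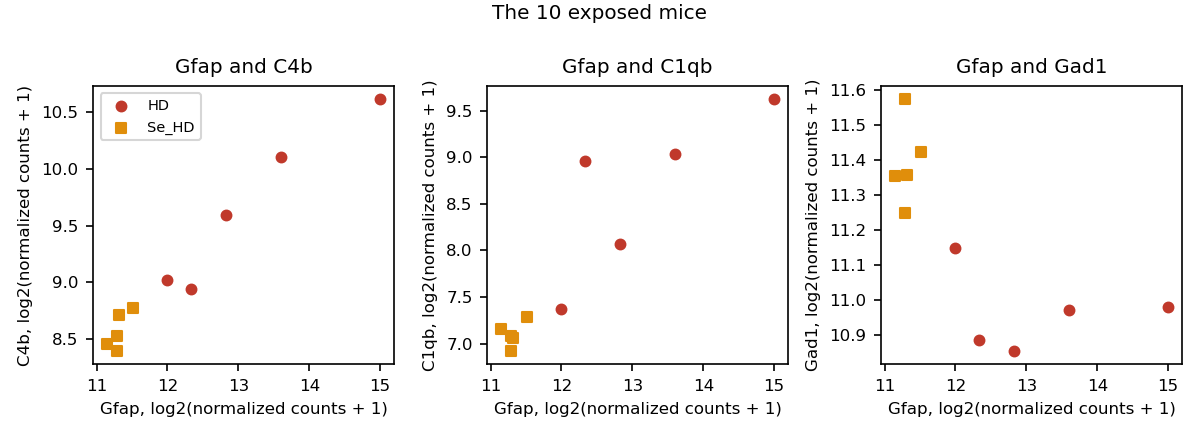
Levels of C4b, C1qb and Gad1 against Gfap in the 10 exposed mice, all as log2(normalized count + 1), with HD as circles and Se_HD as squares. C4b follows Gfap within each diet (r = 0.971 and 0.765), whereas Gad1 separates the diets and has r = -0.144 and 0.190 with Gfap within them.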

How the data were processed

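Hippocampus RNA of single mice was sequenced from libraries of a strand-marking mRNA kit, as single-end reads of 75 bases. The authors trimmed reads with Trim Galore (0.4.2), aligned them to NCBIM37 with HISAT2, counted them per gene with featureCounts and divided by DESeq2 size factors over all 30 libraries. The strand setting of the counting is not given in the sources used here. The deposited values are thus a signal, size-factor normalized counts of 21412 genes, and genes with few reads in all had been left out by the authors. Multiplied by recomputed size factors, 100% of values gave whole reads (tolerance 0.01), which were used for depth, edgeR and DESeq2. Of the identifiers, 21326 had a symbol.

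Groups followed the treatment labels. Mice were housed singly and each library came from an RNA sample of its own. Batches of extraction or sequencing are not given in the sources used here, so p values measure the spread between these samples. Genes whose normalized counts in the fitted libraries added up to 10 or more were tested with limma (3.58.1, trend) on log2(normalized count + 1), with diet as covariate and Benjamini-Hochberg adjustment over all genes, and called at 0.05. Interactions used 4 group means, and comparisons within a diet used the 10 libraries of that diet. Members and gene lists were chosen with earlier results of these data known. Genes were named by lowest p and largest change among called genes, and as the 2 most abundant members of a list with no called gene. Because 6 genes were called, most list members are named beyond that rule, after their values were seen. On simulated counts of 20489 genes for the pooled comparison, limma recovered 52 of 100 genes changed by 0.5 on the log2 scale. It recovered 98 of 100 changed by 1, with 16 false calls. These values describe the simulated counts only, and recovery at the spread between the mice measured here was not tested. Alternatives covered pseudocount, filter, normalization, covariates, edgeR (4.0.16), DESeq2 (1.42.0), all libraries in a single fit and leaving out each mouse. Promoter entries matched 12306 of 20582 tested genes.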

Additional observations from a re-analysis of the deposited data

Results flagged for a closer look

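Within the 4 groups of 5 mice, 408 sets of values (101 genes and the reads on genes) were screened. A mouse was flagged if its gap to its nearest neighbour was over 0.71 of the range of its group. Gaps of genes were taken on log2(normalized count + 1), where they are smaller for high values than on the counts themselves. For reads on genes they were taken on the reads. 20 sets were flagged, where chance alone gives about 1 in 20, or 20.4. 8 of them concern HD library 21. In HD, this mouse was the highest in Serpina3n (ratio 0.808), Vim (0.713), Prdx1 (0.804) and Gbp2 (0.777), and the lowest in Vamp1 (0.718), Kif5a (0.755), Vamp2 (0.799) and Egr1 (0.828). Ctr library 1 was the lowest Ctr mouse in Lamp2 (0.76) and the highest in Vamp1 (0.788). Ctr library 13 was the lowest in C1qc (0.78) and Mal (0.77). Se_Ctr library 28 was the highest in Serpina3n (0.743) and the lowest in Gstm1 (0.8) and Maf (0.772). In Se_HD, library 30 was the highest in Clu (0.751), library 24 the highest in Sepw1 (0.749), library 18 the lowest in Ccl4 (0.746, at 0) and library 12 the only mouse with any Il1b (1.0). HD library 15 had the fewest reads on genes in HD (0.821).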

How the results depend on the processing

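None of the 101 genes tracked changed direction in any of 37 alternatives, of which 1, leaving out the 4 libraries that stood apart, was added after seeing the data (36 for Ccl3, Ccl4, Il1b and Glycam1, which a filter on the mean leaves out). C4b was called in 36 of them, the exception being limma without trend (adjusted p = 0.0874), Gstm1 in 32, Agt in 21, Hrsp12 in 20, Vamp1 in 19 and Mpeg1 in 18. Against 5 higher and 1 lower genes, a pseudocount of 10 gave 2 and 0, TMM factors 2 and 0, limma without trend 0 and 0 (1064 and 751 at an unadjusted p under 0.05), and the choroid plexus covariate 3 and 0. Sets of 6 library numbers as covariate gave 4 and 0, without Vamp1 and Mpeg1 (both adjusted p = 0.0760), no diet covariate 2 and 1, a mean of at least 10 counts 6 and 2, and quantile normalization 7 and 2. edgeR gave 8 and 2, array weights 15 and 5, 4 group means 24 and 4, all 30 libraries 39 and 6, and DESeq2 62 and 16. The cause of these differences was not tested. Leaving out 1 mouse gave 1 to 14 higher and 0 to 3 lower genes, with 14 and 2 without HD library 21, 12 and 1 without HD library 27, 9 and 3 without HD library 15, 8 and 2 without Se_HD library 12, 8 and 1 without Se_HD library 18, and C4b alone without Ctr library 7, 19 or 25 or Se_HD library 30. C4b and Gstm1 alone were called without Ctr library 13, Se_Ctr library 16 or HD library 3 or 9. Without Se_HD library 24 or Se_Ctr library 4 the counts were 3 and 0, without Se_Ctr library 28 they were 3 and 1, without Se_Ctr library 22 they were 4 and 0, and without Se_HD library 6 they were 5 and 0. Without the 4 libraries that stood apart, 7 and 2 genes were called, and 6 higher and 4 lower genes had no overlap of 8 exposed and 8 control mice. DESeq2 called 3 genes in the interaction, 138 in HD against Ctr, 13 in Se_HD against Se_Ctr and 76 between the doses, where edgeR called 8. The labels give no replicate numbers shared between groups, and the fit with sets of 6 library numbers was the matched analysis made here. Depth limits low genes: the cytokines of this text rest on few reads in each library.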
